A study of Danio rerio with 12 samples.

Results

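The 5 genes followed on the arrays were the glucocorticoid receptor gene *nr3c1*, *fkbp5*, which encodes a co-chaperone of that receptor, and the regulators *tsc22d2*, *nfil3-6* and *arrdc3a*. They are 5 of the 8793 genes that the array annotation names, and are represented by 8 of its 15617 probe sets, all those that carry 1 of the 5 symbols. The genes were chosen by their signal level, their closeness to background and their ethanol to control ratios in these data. Their ethanol changes are therefore given as a description, and how many of them passed the test run on all probe sets is given only as a count from which nothing is read. The 6 ethanol pools were whole *Danio rerio* embryos of the ABTL strain whose medium held ethanol at 100 mM between 2 and 4.5 hours postfertilization (hpf), and the 6 control pools were embryos of the same strain in medium without ethanol. Each pool held 20 embryos, and total RNA was taken at 4.5 hpf, before gastrulation. Arrays that share a number in their titles, 1 to 6, are taken as 1 experiment. A pool averages all cells of its embryos, so that fewer cells of a type and less RNA per cell cannot be told apart.

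The glucocorticoid receptor is a ligand-activated transcription factor that waits in the cytoplasm in a complex with Hsp90 and its co-chaperones. When cortisol binds, the receptor moves to the nucleus and turns its target genes on or off. Zebrafish carry a single glucocorticoid receptor gene, and their eggs hold maternal receptor mRNA and maternal cortisol before the embryo makes its own. Fkbp5 lowers the affinity of the receptor for its hormone in mammals, where its gene is itself a glucocorticoid target. Nfil3 proteins are bZIP repressors that bind the same DNA sites as the activators of the PAR bZIP family in the circadian system. Tsc22d proteins have a leucine zipper, and the family includes the glucocorticoid-induced Tsc22d3. Arrdc3 is an arrestin-domain adaptor that recruits ubiquitin ligases of the Nedd4 family to membrane receptors in mammals.

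The values are MAS5 signals, a background-corrected brightness per probe set. The median signal of an array was 98.6 to 106.6 in ethanol pools and 91.6 to 102 in control pools. A bacterial control sequence that zebrafish RNA does not hold (AFFX-TrpnX, 3 probe sets) gave signals of 1.45 to 37.7 over the 12 arrays, with a median of 5.25. Signals of different probe sets depend on their probes and do not rank transcripts by amount. Of the 20 blastula markers, all had a mean signal of at least 50, while 8 of 11 markers of later tissues, among them *myl7* and *ins*, lay under 50. The 13 enveloping layer markers measured, from the outer epithelium of the blastula, summed to 41373 to 53507 in ethanol pools and 44562 to 62936 in control pools, and only *krt18b* lay under 50. Of the 12 of these tested, 0 were called higher and 4 lower with ethanol by the rule given below (*krt17*, *anxa1a*, *anxa1c* and *elf3*). Over all tested probe sets 3.78% were called higher and 1.62% lower. The list median log2 fold change of the enveloping layer markers was -0.23. Among the blastula markers 1 of 20 tested (*sox2*) was lower, and among those of later tissues 1 of 3 (*actc1a*), with 0 higher in either list. The 9 yolk syncytial layer markers measured summed to 15130 to 19178 in ethanol pools and 15815 to 24374 in control pools, with *apobb.1* and *apoa4b.1* under 50, 0 of 7 tested called by limma and a list median of -0.28. The part of these shifts in the results on the 5 genes was not tested.

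*nr3c1*, the receptor gene, has 3 probe sets, which did not all give the same direction. Differences between the probe sets were not tested, and their match to the transcript was not checked. On probe set 1, the one of highest signal, the *nr3c1* signal was 111 to 266 (median 135) in ethanol pools, against 49.5 to 144 (median 91.1) in control pools. The groups overlapped, and 3 of the 6 ethanol arrays lay above every control array. Within experiments, ethanol was higher than control in 6 of 6 pairs, with log2 ratios of 0.90, 0.76, 1.0, 0.52, 1.22 and 0.23 in experiments 1 to 6. The mean signal was 168 ± 69.2 in ethanol and 98.5 ± 38.1 in control pools (SD, n = 6 each), and the log2 fold change was 0.77 (SE 0.14), or 1.71-fold.

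**Figure D1:**
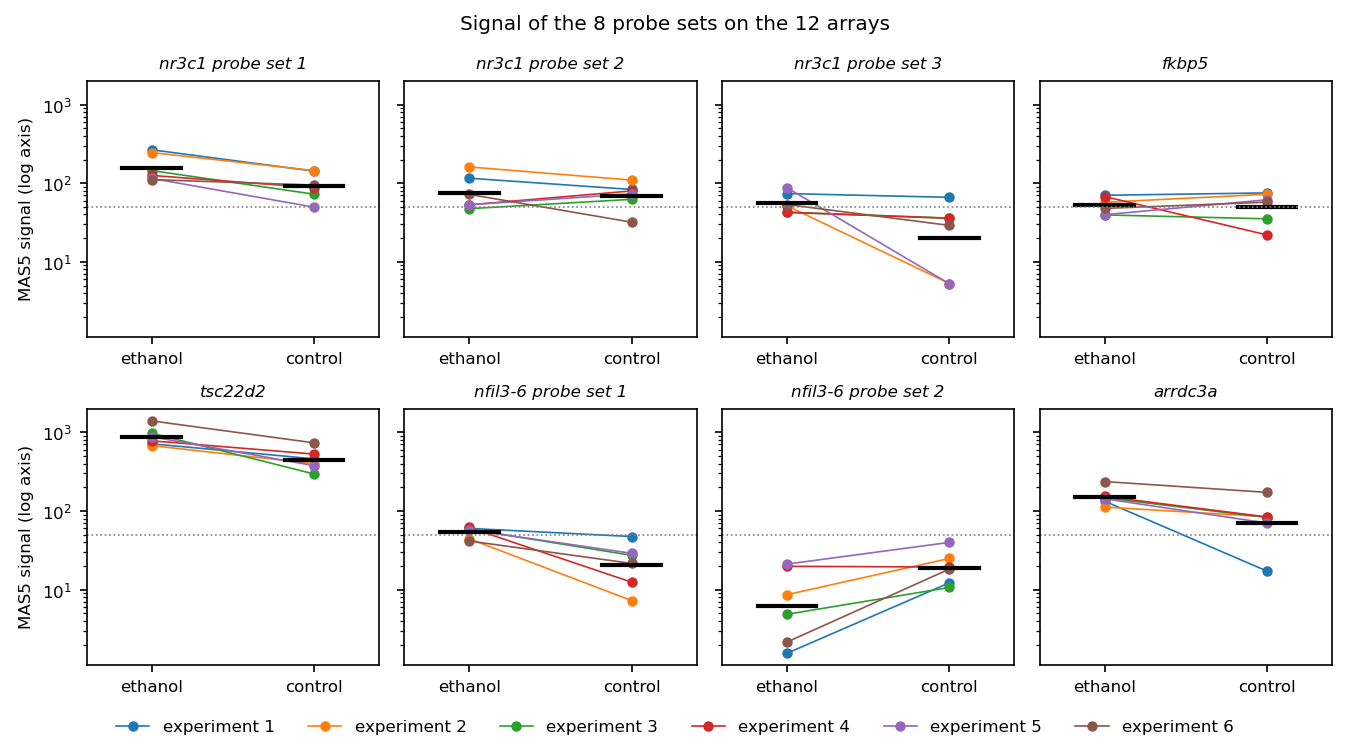
MAS5 signal (log axis) of the 8 probe sets of the 5 genes on the ethanol arrays (left of each panel) and control arrays (right). Each line joins the 2 arrays of 1 experiment, black bars are geometric means, and the dotted line marks a signal of 50. *tsc22d2* is at 295 or above on every array. Both *nfil3-6* probe sets stay at or under 61.6, *fkbp5* at or under 75.2 and *nr3c1* probe set 3 at or under 87.5.

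Probe set 2 of *nr3c1* showed no common direction. Its signal was 47.5 to 161 (median 62.6) in ethanol pools, against 31.9 to 109 (median 76.4) in control pools. It was higher with ethanol in experiments 1, 2 and 6 and lower in 3, 4 and 5, with a log2 change of 0.13 (SE 0.24). Without experiment 6 this value was -0.08. Probe set 3 was higher with ethanol in 6 of 6 pairs, at 42.5 to 87.5 (median 52.6) in ethanol pools, against 5.26 to 66.1 (median 32.4) in control pools. Its log2 change of 1.48 (SE 0.56) came mainly from experiments 2 and 5, with log2 ratios of 3.28 and 4.06, where the control signals were 5.30 and 5.26. The ratio in the other 4 experiments was 0.16 to 0.88. With 50 added to every signal before the log, the log2 fold change of probe set 3 was 0.48, against 0.54 for probe set 1 and 0.08 for probe set 2.

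The level of *nr3c1* in each experiment, taken over both treatments, is given as a description, since signal level was among the values that chose the genes. On probe set 1, the geometric mean of both arrays of an experiment was 195 in experiment 1 and 188 in experiment 2, against 102, 105, 75.5 and 102 in experiments 3 to 6. The pools of experiments 1 and 2 were the highest of their treatment, with signals of 266 and 245 among ethanol and 142 and 144 among control pools. Probe set 2 was likewise highest in these experiments, with geometric means of 98.1 and 133, and 47.9 to 65.1 in the others. Probe set 3 did not share this pattern. Its geometric mean was 69.8 in experiment 1 but 16.5 in experiment 2, the lowest of the 6, and 39.2, 39.0, 21.5 and 39.4 in experiments 3 to 6. *fkbp5* was also highest in experiments 1 and 2, with geometric means of 72.7 and 64.3, against 37.3 to 52.4 in the others. Over all tested probe sets, 17.9% differed between experiments at an adjusted p under 0.05 (moderated F test in limma). Of the 7 member probe sets tested, 1 was among them, *nr3c1* probe set 1, and it was no longer so without experiment 1, without experiment 2 or without a minimum signal.

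*fkbp5* had a single probe set, and its signal did not separate the treatments. It was 39.5 to 70.2 (median 52.5) in ethanol pools, against 22.0 to 75.2 (median 59.5) in control pools. No ethanol array lay above every control array. The ratio was negative in 4 of 6 experiments, with log2 values of -0.10, -0.34, 0.16, 1.62, -0.63 and -0.26 in experiments 1 to 6. The log2 fold change was 0.08 (SE 0.27), while the mean signals were 53.7 ± 13.5 in ethanol and 53.9 ± 21.1 in control pools (SD, n = 6 each). The positive sign rests on experiment 4, whose control array had the lowest *fkbp5* signal, 22.0, and without that experiment the value was -0.23. Signals of 3 ethanol and 4 control arrays reached 50.

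**Figure D2:**
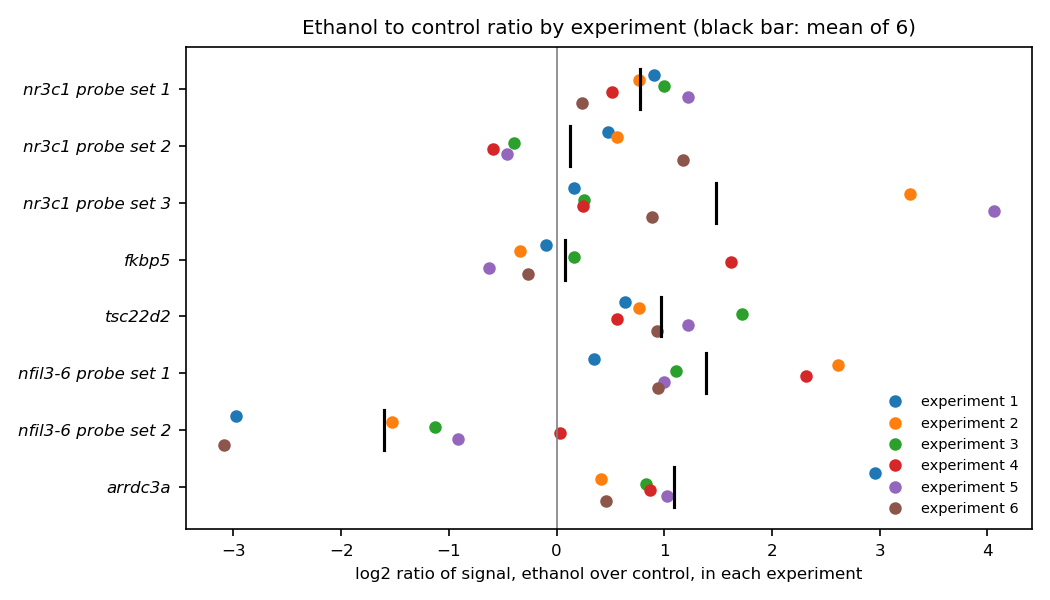
Log2 ratio of signal, ethanol over control, in each of the 6 experiments (coloured points) for the 8 probe sets, with the mean as a black bar. All 6 ratios are above 0 for *nr3c1* probe sets 1 and 3, *tsc22d2*, *nfil3-6* probe set 1 and *arrdc3a*, while 5 of 6 are below 0 for *nfil3-6* probe set 2 and 4 of 6 for *fkbp5*.

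*tsc22d2*, of the Tsc22 domain family, had the strongest signal of the 8 probe sets, and was far above the bacterial sequence on every array. Its signal was 677 to 1397 (median 828) in ethanol pools, against 295 to 734 (median 429) in control pools. Of the 6 ethanol arrays 4 lay above every control array, and the groups met only through control array 6, at 734, which is above ethanol arrays 1 and 2, at 714 and 677. Ethanol was higher in 6 of 6 pairs, with log2 ratios of 0.64, 0.76, 1.72, 0.56, 1.22 and 0.93 in experiments 1 to 6. The means were 903 ± 265 in ethanol and 465 ± 153 in control pools (SD, n = 6 each), a log2 change of 0.97 (SE 0.16), or 1.96-fold. With experiments left out 1 at a time, the value lay between 0.82 and 1.05, and with 50 added to every signal it was 0.90. Experiment 6 had the highest *tsc22d2* signal in both treatments, 1397 with ethanol and 734 without.

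*nfil3-6*, a bZIP repressor gene, was near background on both of its probe sets, and these moved in opposite directions. On probe set 1 the signal was 41.4 to 61.6 (median 58.1) in ethanol pools, against 7.24 to 47.3 (median 24.4) in control pools. All 6 control arrays were under 50, whereas 4 ethanol arrays were above it, and 4 lay above every control array. The log2 ratios were 0.34, 2.61, 1.11, 2.31, 0.99 and 0.94 in experiments 1 to 6. The mean log2 change of 1.38 (SE 0.29), or 2.61-fold, is of uncertain size, since the control signals overlap those of the bacterial sequence. With 50 added to every signal it was 0.50.

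On probe set 2 of *nfil3-6* the signal was 1.55 to 21.1 (median 6.73) in ethanol pools, against 10.6 to 39.8 (median 18.8) in control pools. It was lower with ethanol in 5 of 6 pairs, with a log2 change of -1.60 (SE 0.45), and all 12 signals lay within or just above the range of the bacterial sequence. This probe set was under the signal minimum and was not tested. With 50 added to every signal its log2 fold change was -0.25. The probe sets of this gene do not give a common direction. Their probe sequences were not used here, and which of them matches the *nfil3-6* transcript was not checked, so that neither value can be taken as that of the gene.

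*arrdc3a*, the arrestin-domain adaptor gene, had a signal of 112 to 236 (median 145) in ethanol pools, against 17.2 to 172 (median 83.1) in control pools. Ethanol was higher in 6 of 6 pairs, and 1 ethanol array, that of experiment 6, lay above every control array. The log2 ratios were 2.95, 0.41, 0.83, 0.87, 1.03 and 0.46 in experiments 1 to 6. The first of them stands apart, because control array 1 had a signal of 17.2, the lowest of the 12. The log2 fold change was 1.09 (SE 0.31), or 2.13-fold, and 0.72 without experiment 1.

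Within the arrays, the 8 probe sets covered a wide part of the signal range. In ethanol pools *tsc22d2* was above a median of 81.2% of the probe sets of the array, against 73.1% in control pools, and *arrdc3a* above 55.8% against 47.4%. For *nr3c1* these shares were, in ethanol and in control pools, 54.8% and 49.3% on probe set 1, 41.8% and 46.0% on probe set 2, and 39.7% and 31.9% on probe set 3. *fkbp5* was above 39.5% in ethanol and 42.2% in control pools. The *nfil3-6* probe sets were lowest in control pools, with 41.0% in ethanol and 26.0% in control pools on probe set 1, and 11.3% and 22.2% on probe set 2. Control array 1 was the lowest of the 12 for *arrdc3a*, and the other control arrays lay at 44.7% to 58.0%.

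**Figure D3:**
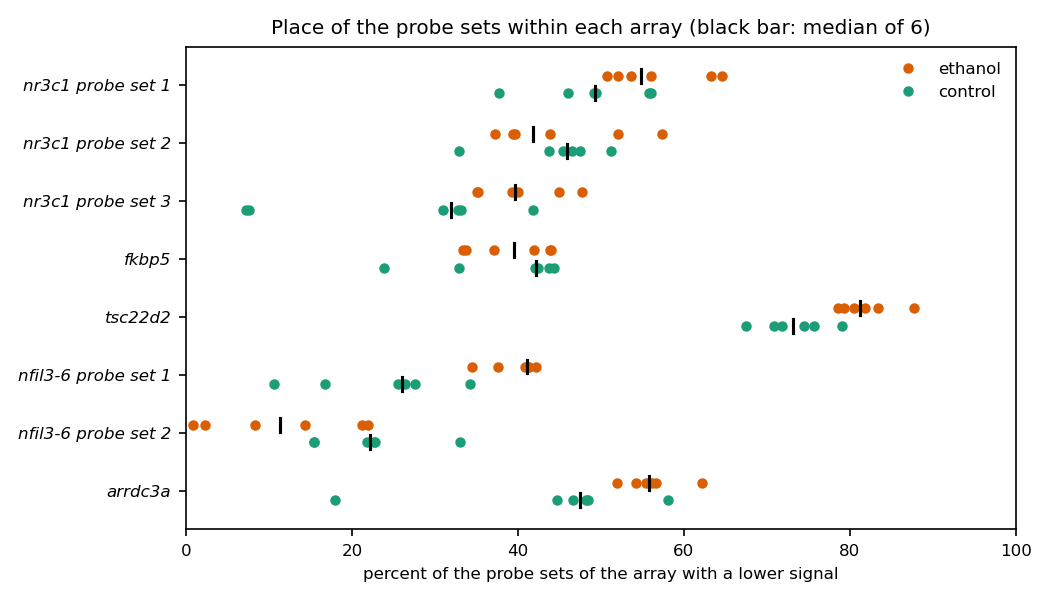
Percent of the 15617 probe sets of an array with a lower signal than the probe set named, on the 6 ethanol (orange, upper) and 6 control (green, lower) arrays, with black bars at the medians. *tsc22d2* lies between 67.5% and 87.7% on all arrays, and *nfil3-6* probe set 2 between 0.85% and 33.0%.

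Of the 8 probe sets, 7 reached a mean of 50 in 1 or both treatments and were tested, and *nr3c1* probe set 3 and *nfil3-6* probe set 1 reached this minimum only in ethanol pools. A probe set was called at an adjusted p under 0.15 and an unadjusted p under 0.03 from limma with an absolute log2 fold change of at least 0.32. By this rule 4 of the 7 were called higher (*nr3c1* probe set 1, *tsc22d2*, *nfil3-6* probe set 1 and *arrdc3a*) and 0 lower, where 3.78% of all tested probe sets were called higher and 1.62% lower. Ethanol was higher in all 6 experiments for 5 of the 7, against 8.14% of all tested, and the treatments did not overlap for 0 of the 7, against 0.44% of all tested with every ethanol array above every control array. In each experiment 5 or 6 of the 7 were higher with ethanol. The median log2 ratio over the 7 was 0.48, 0.76, 0.83, 0.56, 1.03 and 0.88 in experiments 1 to 6, where that of all tested probe sets was 0.03 to 0.09. The 7 include more than 1 probe set of *nr3c1* and are not replicates. Since the genes were chosen with this contrast in view, nothing is read from these counts and medians. The log2 fold changes of all 8 probe sets kept their signs after quantile scaling and after median centring. That of *arrdc3a* was 1.08 and 1.02, but *arrdc3a* was no longer called after either scaling. Of all 9767 probe sets 369 were called higher and 158 lower, and this split was 103 and 145 by quantile scaling and 60 and 120 by median centring, with a median over all probe sets of 0.05 as deposited, 0.02 with the first scaling and -0.02 with the second.

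Genes around the receptor were examined as lists, each gene by its tested probe set of highest signal. Over 9 lists, 107 of 144 genes on the array were tested, 5 were higher, 3 lower and 99 were not called, that is 7.48% called, against 5.4% of all tested probe sets. The median log2 fold change over the listed genes was 0.09, and 0.05 over all tested probe sets. In limma 18.2% of all tested probe sets had an unadjusted p under 0.05. Shares of all tested, here and below, are over every probe set and were not matched to the listed genes by signal. Every call named below had the same sign in 6 of 6 experiments and after both other scalings, but *nrip1b*, *arrdc2*, *bmal2* and *chac1* were no longer called after quantile scaling or median centring, nor *cdc37* and *klf2a* after median centring. The listed genes then gave 1 higher and 4 lower by quantile scaling, and 0 higher and 2 lower by median centring. Of the listed genes 0 were called at an adjusted p under 0.05 or without experiment as a factor (limma, 30 and 12 at an unadjusted p under 0.05). Without experiments 1 to 6 in turn 1, 0, 0, 1, 1 and 2 of the listed genes were called by limma, with 20 to 29 at an unadjusted p under 0.05.

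The list of chaperones and related genes gave 1 call. It is not confined to those that hold the receptor, and includes *hsf1* and *stub1*. Of 16 tested, 0 were higher and 1 lower, and the list median was -0.14 (-0.03 by quantile scaling, -0.21 by median centring). An unadjusted p under 0.05 (limma) was found for 3 of the 16, against 18.2% of all tested probe sets. The gene called was *cdc37*, an Hsp90 co-chaperone best known for its work on kinases, with a signal of 582 ± 113 in ethanol and 739 ± 104 in control pools (SD, n = 6 each) and a log2 change of -0.35 (SE 0.10, limma adjusted p = 0.148). *hsp90ab1*, the constitutive cytosolic Hsp90, had a mean of 14391 with ethanol and 16001 without (log2 fold change -0.15, adjusted p = 0.408, and 0.03 after quantile normalization). *fkbp4*, the relative of *fkbp5* that promotes the receptor's transport in mammals, had 1130 ± 261 in ethanol and 893 ± 153 in control pools (SD, n = 6 each). It was higher in 6 of 6 experiments at a log2 fold change of 0.33, but did not pass (limma adjusted p = 0.158).

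Of 14 genes tested that glucocorticoids are known to induce in mammals or fish, 0 were higher and 1 lower by limma, where 3.78% of all tested probe sets were higher and 1.62% lower. An unadjusted p under 0.05 (limma) was found for 6 of the 14, against 18.2% of all tested. Of these *klf9*, *sgk1*, *cry2*, *foxo3a* and *irs2a* were higher with ethanol and *anxa1a* lower. *cry2* also stands in the clock list below, and further *foxo3a* probe sets had log2 fold changes of -0.07 and -0.05. The list median was 0.17 (0.10 by quantile scaling, 0.10 by median centring). *klf9*, a Krüppel-like factor gene, had a signal of 107 ± 59.5 in ethanol and 72.7 ± 36.4 in control pools (SD, n = 6 each), a log2 change of 0.52 (SE 0.16, limma adjusted p = 0.168) that was positive in 5 of 6 experiments. The kinase gene *sgk1* had 285 ± 50.8 in ethanol and 203 ± 35.3 in control pools (SD, n = 6 each), with a log2 change of 0.48 (SE 0.15, limma adjusted p = 0.176) and 4 of 6 experiments positive. *tsc22d3*, the glucocorticoid-induced relative of *tsc22d2*, had a log2 change of 0.20 (SE 0.09, limma adjusted p = 0.295). The gene called was *anxa1a*, a member of the annexin family whose mammalian relative responds to glucocorticoids. Its signal was 5483 ± 1614 in ethanol and 8117 ± 2167 in control pools (SD, n = 6 each), a log2 change of -0.58 (SE 0.11, limma adjusted p = 0.0885). It is also one of the 4 enveloping layer markers that were lower with ethanol.

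**Figure D4:**
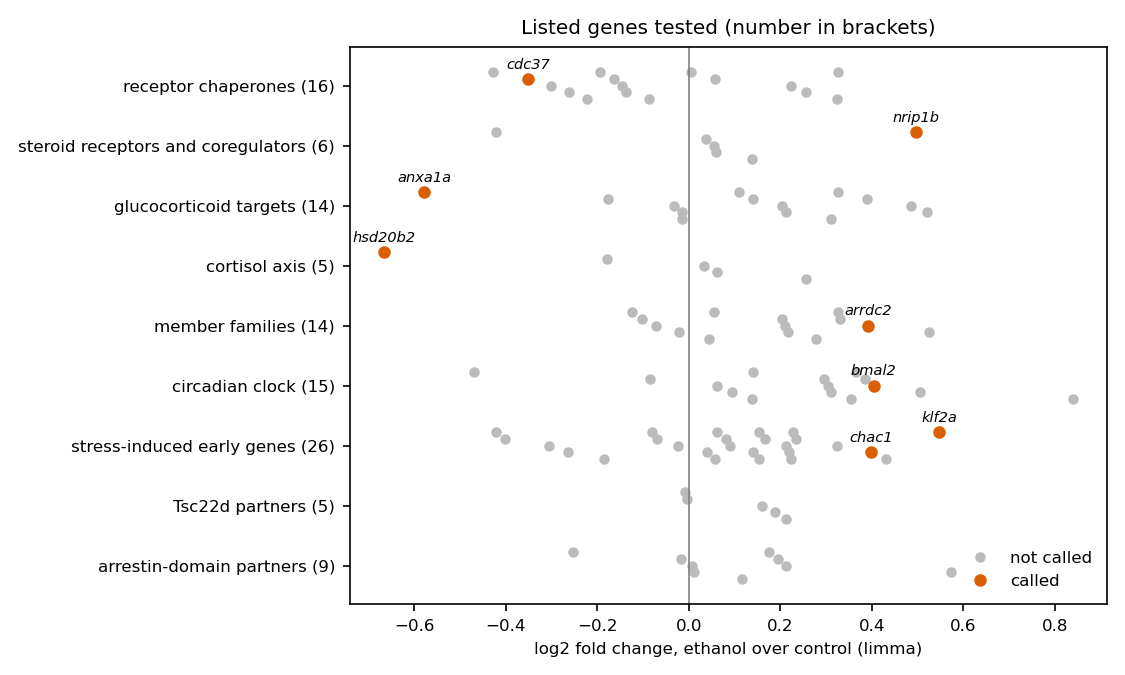
Log2 fold change, ethanol over control, from limma for the tested genes of the 9 lists (number of genes in brackets; a gene may stand in more than 1 list). Orange points are called and named, grey points are not called. Most points of every list lie between -0.4 and 0.6.

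Steroid receptors and coregulators, and the genes that make and break down cortisol gave 2 calls. Of 9 receptor and coregulator genes on the array 6 were tested, 1 was higher and 0 lower (limma, 1 at an unadjusted p under 0.05). This was *nrip1b*, which encodes a nuclear receptor corepressor, with 296 ± 38.6 in ethanol and 211 ± 36.7 in control pools (SD, n = 6 each) and a log2 change of 0.50 (SE 0.11, limma adjusted p = 0.101). Over the list the median was 0.06 (0.07 by quantile scaling, -0.01 by median centring). Of 12 cortisol axis genes on the array 5 were tested, 0 were higher and 1 lower. This was *hsd20b2*, whose enzyme acts in the breakdown of cortisol in zebrafish. It had 65.4 ± 20.3 in ethanol and 103 ± 33.0 in control pools (SD, n = 6 each), a log2 change of -0.67 (SE 0.17, limma adjusted p = 0.130). A further *hsd20b2* probe set lay under the minimum, at means of 13.2 in ethanol and 19.4 in control pools. The list median of 0.03 turned to -0.07 by quantile scaling and -0.04 by median centring.

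Relatives of the 5 genes gave 1 call among 14 tested, where 3.78% of all tested probe sets were called higher and 1.62% lower. An unadjusted p under 0.05 (limma) was found for 5 of the 14, against 18.2% of all tested. These were *arrdc2*, *txnipa*, *fkbp4*, *fkbp10b* and *fkbp14*, each higher with ethanol. *arrdc2*, another arrestin-domain gene, was higher, with 309 ± 32.7 in ethanol and 236 ± 32.6 in control pools (SD, n = 6 each), a log2 change of 0.39 (SE 0.09, limma adjusted p = 0.103). A second *arrdc2* probe set, at means of 58.1 in ethanol and 55.6 in control pools, had a log2 fold change of 0.14 and was not called. *txnipa*, of the same arrestin-like family, had one of 0.52 (adjusted p = 0.157), with 2420 in ethanol and 1730 in control pools on average. *nfil3-5*, by contrast, had a strong signal in both treatments, with 1671 ± 367 in ethanol and 1683 ± 283 in control pools (SD, n = 6 each) and a log2 change of -0.02 (SE 0.08, limma adjusted p = 0.910). The family list median was 0.21 (0.11 by quantile scaling, 0.14 by median centring).

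Among 15 genes of the circadian clock, whose outputs the Nfil3 proteins repress, 1 was higher and 0 lower. An unadjusted p under 0.05 (limma) was found for 8 of the 15, against 18.2% of all tested probe sets. A positive log2 fold change was found for 13, against 59.7% of all tested. Both counts include *npas2* (means of 55.4 in ethanol and 35.1 in control pools) and *bmal1b* (57.4 and 45.6). These reached the minimum signal only in ethanol pools, so that a positive ratio was likely in advance. *cry1a* (49.3 and 62.4) reached it only in control pools and was lower with ethanol. The list was also chosen with earlier results of these data known, and nothing is read from these counts. *bmal2*, a partner of Clock, had 258 ± 71.7 in ethanol and 196 ± 58.3 in control pools (SD, n = 6 each), with a log2 change of 0.40 (SE 0.10, limma adjusted p = 0.129). A second *bmal2* probe set had one of 0.34 and was not called, and *per2*, a negative limb gene of the clock, one of 0.37 (adjusted p = 0.151) on the list's probe set, each with higher means in ethanol pools. The clock list median was 0.30, the highest of the 9 (0.25 by quantile scaling, 0.24 by median centring). Of 26 stress-induced early genes 2 were higher and 0 lower, at a median of 0.11 (0.08 by quantile scaling, 0.05 by median centring). An unadjusted p under 0.05 (limma) was found for 7 of the 26, in both directions. *klf2a*, a Krüppel-like factor gene, had 712 ± 40.8 in ethanol and 490 ± 59.6 in control pools (SD, n = 6 each), a log2 change of 0.55 (SE 0.11, limma adjusted p = 0.0940). *chac1*, which encodes a glutathione-degrading enzyme induced in the integrated stress response, had 1242 ± 294 in ethanol and 923 ± 78.6 in control pools (SD, n = 6 each), with a log2 change of 0.40 (SE 0.11, limma adjusted p = 0.148). A further *chac1* probe set lay under the minimum, at means of 12.5 in ethanol and 14.6 in control pools.

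Partners of the proteins gave 0 calls. Since 5.4% of all tested probe sets were called, 0 calls in lists this small are near that share, and nothing is read from them. Of 5 genes listed as partners of Tsc22d proteins, all but *akt1s1* of the WNK kinase pathway, 0 were called by limma. An unadjusted p under 0.05 was found for 0 of them, and *wnk1b* had a log2 change of 0.16 (SE 0.10, limma adjusted p = 0.414). Of 9 partners of arrestin-domain proteins 0 were called and, against 18.2% of all tested probe sets, 1 had an unadjusted p under 0.05 (limma). This was *ndfip2*, lower in 6 of 6 experiments at a log2 change of -0.25 (SE 0.08, limma adjusted p = 0.166). The ligase gene *nedd4l* had 85.6 ± 41.6 in ethanol and 53.0 ± 13.5 in control pools (SD, n = 6 each), at a log2 change of 0.57 (SE 0.29, limma adjusted p = 0.343), and was higher in 5 of 6 experiments. The ordinary linear model with Storey q called 0 of either list.

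For each gene the named probe sets of most similar pattern were found by Pearson's r of log2 signal over the 12 arrays, which share treatment and experiment. *nr3c1* probe set 1 was followed by *ccz1* (r = 0.95), *polr1b* (0.94) and *snx10a* (0.94). *tsc22d2* was followed by *slc16a9b* (r = 0.93), a monocarboxylate transporter gene with a mean of 514 in ethanol and 112 in control pools, then *cdr2l* (0.91) and *lrrfip1a* (0.89). *arrdc3a* was closest to *scarb2a* (r = 0.98), *znf292a* (0.96) and *dnaaf10* (0.95), *nfil3-6* probe set 1 to *porcnl* (0.90), *prrc2b* (0.88) and *pls1* (0.86), and *fkbp5* to *bmper* (0.86), *syt13* (0.85) and *si:dkey-31c13.1* (0.85). None of the 15 genes was shared between these lists. Each list holds the highest r among all named probe sets compared, over only 12 arrays. High values can therefore arise by selection alone, and r was not tested against chance. The signals of *fkbp5* and of *nfil3-6* probe set 1 also lie near background. *prrc2b*, at means of 61.0 in ethanol and 49.3 in control pools, reached the minimum signal only in ethanol pools. Nothing is read from these lists or from their lack of shared genes.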

How the data were processed

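The authors made MAS5 signals, an intensity per probe set, from 1-colour Affymetrix Zebrafish Genome Arrays with Affymetrix Expression Console (version not given in the sources used here) and scaled the arrays. The deposited intensity is linear, not yet in log2. The 2% trimmed mean is 500.1 on every array, which is not the scaling target given in the methods. The signals, and the minimum of 50 used here, are on this common scale, and why it differs from the methods is not known. Per the methods the pools come from independent experiments, while the titles give only the treatment and a number. Detection calls were not used here. Instead, probe sets whose mean lay below 50 with and without ethanol (5735) were dropped, as were 115 Affymetrix controls.

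Gene symbols come from GEO's annotation of the array, with 1 brought up to date by gene identifier. Of 15617, 10802 have 1 symbol, 135 several and 4680 none. The log2 signals of 9767 probe sets were fitted in limma 3.58.1 (R 4.3.3) with treatment and experiment as factors and adjusted by Benjamini-Hochberg, after tests on simulated data. SE are from this fit, or from a fit without the minimum for *nfil3-6* probe set 2. Same-numbered arrays deviated together, with correlations of 0.37 to 0.67 across probe sets, although in experiments 1, 3 and 4 the control array was closer to an ethanol array of another number. Arrays were paired by title number because the methods fit experiment as a factor. Python 3.11.15, pandas 2.3.3 and matplotlib 3.10.9 made tables and figures.

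The genes and lists were chosen with earlier results of these data known. The text names every probe set of the 5 genes, called genes of each list, a few relatives and targets set by name, and the 3 genes of most similar pattern. Of the set names, *nr3c2*, *per1a*, *per1b*, *tsc22d1*, *nfil3*, *arrdc3b* and *nrbp1* were not analysed here. For these, no probe set carries the gene's name as its only symbol in the annotation used. *txnipa*, *per2* and *ndfip2*, and the members of the marker lists, were named after their values had been seen.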

Additional observations from a re-analysis of the deposited data

Results flagged for a closer look

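The arrays and ratios of the 8 probe sets were examined for single values that stand apart, in 24 groups of 6, of which chance marks about 1 in 20. For *arrdc3a*, the log2 ratio of experiment 1, 2.95, was separated from the next by 0.757 of the whole range of the 6 ratios (limit 0.625). It comes from control array 1, with a signal of 17.2, and the log2 fold change was 0.72 without that experiment. For *fkbp5*, the log2 ratio of experiment 4, 1.62, was separated by 0.647 of the range. It comes from control array 4, with a signal of 22.0, and the log2 fold change was -0.23 without that experiment.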

How the results depend on the processing

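The log2 fold changes that moved by more than the spread between experiments (1 SD) were those of both *nfil3-6* probe sets with 50 added to each signal, at 0.50 and -0.25. Leaving out 1 of 6 experiments, or treating experiment another way, can hardly move a mean that far. Counts of calls depended on the setting. Over all tested probe sets, 1 was higher and 0 lower with no replicate block, that is without the pairing by experiment (limma, 804 at an unadjusted p under 0.05), 16 and 17 at an adjusted p under 0.05, 1 and 1 without a minimum signal, and 12 to 96 and 11 to 49 when an experiment was left out. The higher count was 605 with a minimum of 100, 103 after quantile normalization and 60 after median centring. Experiment as a random effect gave 433 higher and 181 lower. Of the listed genes, 0 were higher and 0 lower without the replicate block (12 at an unadjusted p under 0.05), at an adjusted p under 0.05 (30) and without a minimum signal (28). Leaving out an experiment gave 0 to 2 higher and 0 to 1 lower, with 20 to 29 at an unadjusted p under 0.05. The higher count was 9 by the ordinary linear model with Storey q, 13 with a minimum of 100, 1 after quantile normalization, 0 after median centring and 9 with 50 added. Of the 7 member probe sets tested, 0 were called without the replicate block, 0 at an adjusted p under 0.05 and 1 to 4 when an experiment was left out. Without a minimum signal 0 of 8 were called. These settings for the members were added after the data had been seen. Since the genes were chosen with this contrast in view, nothing is read from the member counts. Differences between experiments were called for 413 probe sets at an adjusted p under 0.01, 256 without a minimum signal, 2652 with 50 added and 792 to 1381 when an experiment was left out. Fewer samples and more probe sets at background enter the fits that leave out an experiment or the minimum. Otherwise the cause was not tested. The number of arrays and signals near background limit *fkbp5*, *nfil3-6* and *nr3c1* probe set 3.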
